A study of Mus musculus with 9 samples.

Results

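The genes described here are 10 genes of the calcium-regulated thin filament. They comprise the troponin T genes Tnnt1, Tnnt2 and Tnnt3, the troponin I genes Tnni1 and Tnni3, the troponin C gene Tnnc1, and the tropomyosin genes Tpm1, Tpm2, Tpm3 and Tpm4. They were taken by symbol, by matching the gene IDs of the count table to GENCODE, and all 10 were among its 38293 genes. The filter of edgeR on low counts kept 9 of them for testing. Tnni1, with 0 to 6 counts per library, was not kept and is given as counts.

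Tropomyosin lies along the actin filament and covers the sites where myosin binds. The troponin complex moves it when calcium rises: troponin C binds the calcium, troponin I holds the filament off, and troponin T ties the complex to tropomyosin. Each subunit comes from genes named for the muscle in which they prevail. In the adult ventricle these are Tnnt2, Tnni3, Tnnc1 (shared with slow skeletal muscle) and Tpm1. Tnnt1 and Tnni1 are the slow skeletal genes and Tnnt3 is the fast skeletal one, and Tnni1 is also the troponin I gene of the fetal heart. Tpm2 is a tropomyosin of skeletal and smooth muscle. Tpm3 also encodes cytoskeletal tropomyosins of nonmuscle cells, and Tpm4, with 1 annotated coding transcript, encodes such a form. Tpm1 has 16 annotated coding transcripts, which a gene total does not tell apart, so its counts need not come from the sarcomeric form alone. Circulating cardiac troponins T and I, released from damaged myocytes, are standard markers of myocardial infarction.

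RNA came from the left ventricle, by its label the infarcted region, of C57BL/6 mice that were male and 8 weeks old. Tissue was taken 1 day (labelled IR_24hr, mice 4, 5 and 6) or 14 days (labelled IR_14d, libraries A, B and C) after ischemia-reperfusion (I/R), or after sham surgery (mice 1, 2 and 3). In I/R the left anterior descending coronary artery was tied for 1 hour and then released. The 14-day count columns share 1 header, so A, B and C are names only, and the labels do not say when sham tissue was collected. No genetic change or drug is labelled for any group.

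The libraries held 20215781 to 36816818 counts, of which 7217019 to 15969149 were left when ribosomal RNA genes were set aside. Mitochondrially encoded genes took 52.0% to 63.3% of counts at 1 day, 65.0% to 68.8% at 14 days and 65.0% to 71.8% in sham. Values given below under total count only divide by totals that include them, so this group difference enters those values. Values below are CPM, counts per 1000000 counts of the library after trimmed-mean (TMM) scaling, in which 1 count was worth 0.0226 to 0.0639 CPM. The ventricular label was checked against 15 cardiomyocyte markers, all of which passed the filter. Their summed level was 35508 to 54857 CPM at 1 day, 53553 to 70042 CPM at 14 days and 69651 to 76629 CPM in sham. Of the 1-day libraries, mouse 6 lay nearest to sham in that sum, in the summed level of neutrophil genes and in most of the genes below.

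The sequences that set these genes apart bear on how their counts can be read. Cardiac troponin I begins with a stretch that the slow skeletal protein lacks and that protein kinase A phosphorylates. In the coding sequence of Tnni3 (minus strand of chromosome 7) the first 96 bases, 32 codons, had no counterpart in an alignment with Tnni1 (plus strand of chromosome 1). They stand in capitals at the start of the first 150 coding bases, above the first 60 coding bases of Tnni1, both from GENCODE transcripts of GRCm38.
Tnni3: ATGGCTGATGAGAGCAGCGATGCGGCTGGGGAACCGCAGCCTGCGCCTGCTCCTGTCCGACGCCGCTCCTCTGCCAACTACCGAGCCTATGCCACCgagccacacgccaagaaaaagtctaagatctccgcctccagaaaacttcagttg
Tnni1: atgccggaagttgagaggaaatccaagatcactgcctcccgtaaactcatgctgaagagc
Over the aligned part, Tnni1 and Tnni3 were 68.4% identical and shared no run longer than 21 bases. The tropomyosin genes are closer to each other. The coding sequences of Tpm1 and Tpm2 were 78.3% identical over 828 aligned bases. Their longest common run was 35 bases, shown here because a short read inside it could come from either gene.
Tpm1 and Tpm2: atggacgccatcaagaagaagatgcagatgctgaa
Tpm1 and Tpm3 were 78.0% identical, with a longest common run of 23 bases, and Tpm3 and Tpm4 73.0%, with one of 32 bases. How reads with several matches were counted is not given in the sources used here.

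The genes lie on 7 chromosomes, and 3 pairs of a troponin I and a troponin T gene are neighbours in the genome (GRCm38). Tnni1 (chr1:135779434-135810989, plus strand) ends 25364 bases before Tnnt2 (chr1:135836354-135852260, plus strand). Tnnt1 (chr7:4504570-4516382, minus strand) and Tnni3 (chr7:4518305-4524229, minus strand) are 1922 bases apart. Tnnt3 (chr7:142498836-142516009, plus strand) lies 54425 bases from Tnni2, the fast skeletal troponin I gene. Tnnc1 is at chr14:31208312-31211729 on the plus strand and Tpm1 at chr9:67022590-67049406 on the minus strand. Tpm2 is at chr4:43514711-43523765 (minus strand), Tpm3 at chr3:90072649-90100902 (plus strand) and Tpm4 at chr8:72134975-72153142 (plus strand).

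Windows before the RefSeq starts of 3 of the abundant genes held the MCAT letters CATTCC. This is the core that TEAD factors bind and that has been studied in the chicken cardiac troponin T promoter. The windows are the 250 bases before RefSeq starts (GRCm38.p6), 5′ to 3′ on the gene's strand, with the MCAT letters in capitals (GGAATG where they read on the other strand). Tnnc1 held them 58 to 53 bases before its start (window chr14:31208062-31208311) and Tnnt2 held them, in 1 of its 2 windows, 27 to 22 bases before (window chr1:135836084-135836333).
Tnnc1: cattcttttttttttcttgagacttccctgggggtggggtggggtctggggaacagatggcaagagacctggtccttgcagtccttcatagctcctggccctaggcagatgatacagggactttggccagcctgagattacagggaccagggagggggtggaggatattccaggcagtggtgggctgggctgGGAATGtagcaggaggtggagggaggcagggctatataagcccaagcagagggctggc
Tnnt2: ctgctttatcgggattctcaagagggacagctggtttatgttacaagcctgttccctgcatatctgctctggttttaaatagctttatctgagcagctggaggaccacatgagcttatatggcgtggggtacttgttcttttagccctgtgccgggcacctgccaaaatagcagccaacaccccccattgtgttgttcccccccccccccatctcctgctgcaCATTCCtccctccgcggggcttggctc
Tpm1 held them 56 to 51 bases before its start. Since 193 of its 250 window bases lie in annotated exons, 30 bases are shown (chr9:67049252-67049281, minus strand). These bases lie inside the Tpm1 gene of GENCODE, whose outermost start is at chr9:67049406. By that annotation the Tpm1 match is not upstream of the gene.
Tpm1: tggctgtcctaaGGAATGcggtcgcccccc
Searched on both strands, CATTCC was present in 12.6% of 32851 such mouse windows. The E-box letters CANNTG, which overlapped none of these matches, were in 66.2% of windows. Of the 10 genes, 9 had a window (all but Tnnt3), and each of these 9 except Tpm4 held the E-box letters in at least 1 window. TGANTCA (AP-1), in 6.75% of windows, and the CArG and MEF2 motifs, in 1.47% and 2.92%, matched no window of these 9 genes. A match is a description of the letters only.

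At 1 day after I/R the troponin and tropomyosin genes went both ways, not simply by cardiac against other isoform. The cardiac genes Tnnt2, Tnni3 and Tpm1 and the slow skeletal gene Tnnt1 fell against sham. Tpm2, Tpm3 and Tpm4 rose 2.08- to 2.27-fold, and Tnnt3, at a trace level in sham, was higher as well. Of the 9 tested genes, 4 were higher and 4 lower, and Tnnc1 passed in neither direction (edgeR quasi-likelihood test, adjusted p under 0.05). Tnnt3, 1 of the 4 higher genes, passed the filter on low counts only through its 1-day libraries, so its difference was built into the filter and lends the count no support. Over all 14124 tested genes, 54.1% were called in this comparison, 29.4% higher and 24.8% lower, so a call by itself was common. The same 8 genes had groups that did not overlap, against 63.2% of all tested genes (33.5% higher and 29.7% lower). Under total count only, without TMM scaling, the median log2 fold of all genes was higher by 0.484, and 6859 of 7917 calls were higher in place of 4148 of 7644. In that setting 5 of the 9 genes were called, Tnnt3, Tpm2, Tpm3 and Tpm4 higher and Tnni3 lower.

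Tnni3, cardiac troponin I, showed the largest fall of the 9 tested genes at 1 day against sham. It had 530, 490 and 885 CPM in mice 4, 5 and 6 at 1 day, 1309, 976 and 882 CPM in libraries A, B and C at 14 days, and 1487, 1494 and 1545 CPM in sham mice 1, 2 and 3. All 1-day and all 14-day libraries lay below sham, and mouse 6 at 1 day matched library C at 14 days. The log2 fold of 1 day against sham was -1.25 (SE 0.24, edgeR adjusted p = 0.00121), a level of 0.421 of sham. The log2 fold of 14 days against sham was -0.51 (SE 0.24, edgeR adjusted p = 0.166), which did not pass. Between the times, Tnni3 was higher at 14 days by 0.73 (SE 0.24, edgeR adjusted p = 0.0222). That call was lost without mouse 4, mouse 5 or library A (adjusted p from 0.0808 to 0.0958), under total count only and with the groups fitted alone (adjusted p = 0.147 and 0.0599), and the 14-day difference from sham passed without mouse 6 (adjusted p = 0.0218) or with its 2 groups alone (adjusted p = 0.0345).

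In bulk tissue, fewer cells of a type and less RNA per cell cannot be told apart. Tnni3 shares 86 exonic bases, 4.17% of its exonic length, with Dnaaf3 on the same strand, which had 0.516 to 1.76 CPM.

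Tnnt2, cardiac troponin T, had 695, 600 and 886 CPM at 1 day, 1030, 875 and 808 CPM at 14 days, and 1019, 1051 and 1087 CPM in sham. The 1-day libraries lay below sham, and library A at 14 days reached the sham range. The log2 fold was -0.53 at 1 day against sham (SE 0.18, edgeR adjusted p = 0.0244). It was -0.22 at 14 days against sham (SE 0.18, edgeR adjusted p = 0.438) and 0.32 at 14 days against 1 day (edgeR adjusted p = 0.156, and 0.00854 without mouse 6), neither called. The 1-day call was lost without sham mouse 1, 2 or 3, mouse 4 or mouse 5 (edgeR adjusted p from 0.0537 to 0.0943). With total count only in place of TMM scaling it was -0.060 (adjusted p = 0.805).

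Tnnc1, troponin C of heart and slow muscle, had 436, 347 and 467 CPM at 1 day, 463, 401 and 401 CPM at 14 days, and 508, 507 and 426 CPM in sham. All groups overlapped. Its log2 folds were -0.20 at 1 day against sham (SE 0.15, edgeR adjusted p = 0.278), 0.27 under total count only, and -0.19 at 14 days against sham (SE 0.15, edgeR adjusted p = 0.439). The log2 fold of 14 days against 1 day was 0.017 (edgeR adjusted p = 0.935).

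Within a library, counts of 2 genes can be compared without any scaling between libraries, and 14 such ratios were computed. With 3 mice against 3, an exact permutation test cannot give a p below 0.1, so each difference is given with whether the groups overlap. Over 42 tests the smallest adjusted p was 0.135. Of the 14 ratios, 12 had groups apart at 1 day against sham (10 higher, 2 lower), 8 at 14 days against sham (4 higher, 4 lower) and 11 at 14 days against 1 day (1 higher, 10 lower). Among all single tested genes, 63.2%, 39.3% and 56.3% had groups apart in these comparisons. The share over other pairs of genes was not computed. The ratios reuse the same genes, so they are not separate results, and their number by itself says little.

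The ratio of Tnni3 to Tnnt2 counts was 0.763, 0.818 and 0.999 at 1 day, 1.27, 1.12 and 1.09 at 14 days, and 1.46, 1.42 and 1.42 in sham. The 3 groups did not overlap, and sham libraries lay within a narrow band. The ratio at 1 day was 0.596 of sham, a log2 difference of -0.75 (two-sided exact permutation p = 0.1, the smallest possible), and at 14 days 0.807 of sham, a log2 difference of -0.31 (exact permutation p = 0.1).

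The ratio of Tnnc1 to Tnni3 counts stood on the other side of sham, at 0.823, 0.708 and 0.527 at 1 day, 0.354, 0.410 and 0.455 at 14 days, and 0.342, 0.339 and 0.276 in sham. It was 2.13 times the sham ratio at 1 day and 1.27 times at 14 days, with no overlap of either time with sham. The ratio of Tnnc1 to Tnnt2 was 0.628, 0.579 and 0.527 at 1 day, against 0.499, 0.482 and 0.392 in sham, with the groups apart. At 14 days, with 0.450, 0.458 and 0.496, it overlapped sham. The log2 difference of Tnnc1 to Tnnt2 between 14 days and 1 day was -0.30, with groups apart (exact permutation p = 0.1).

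**Figure D1:**
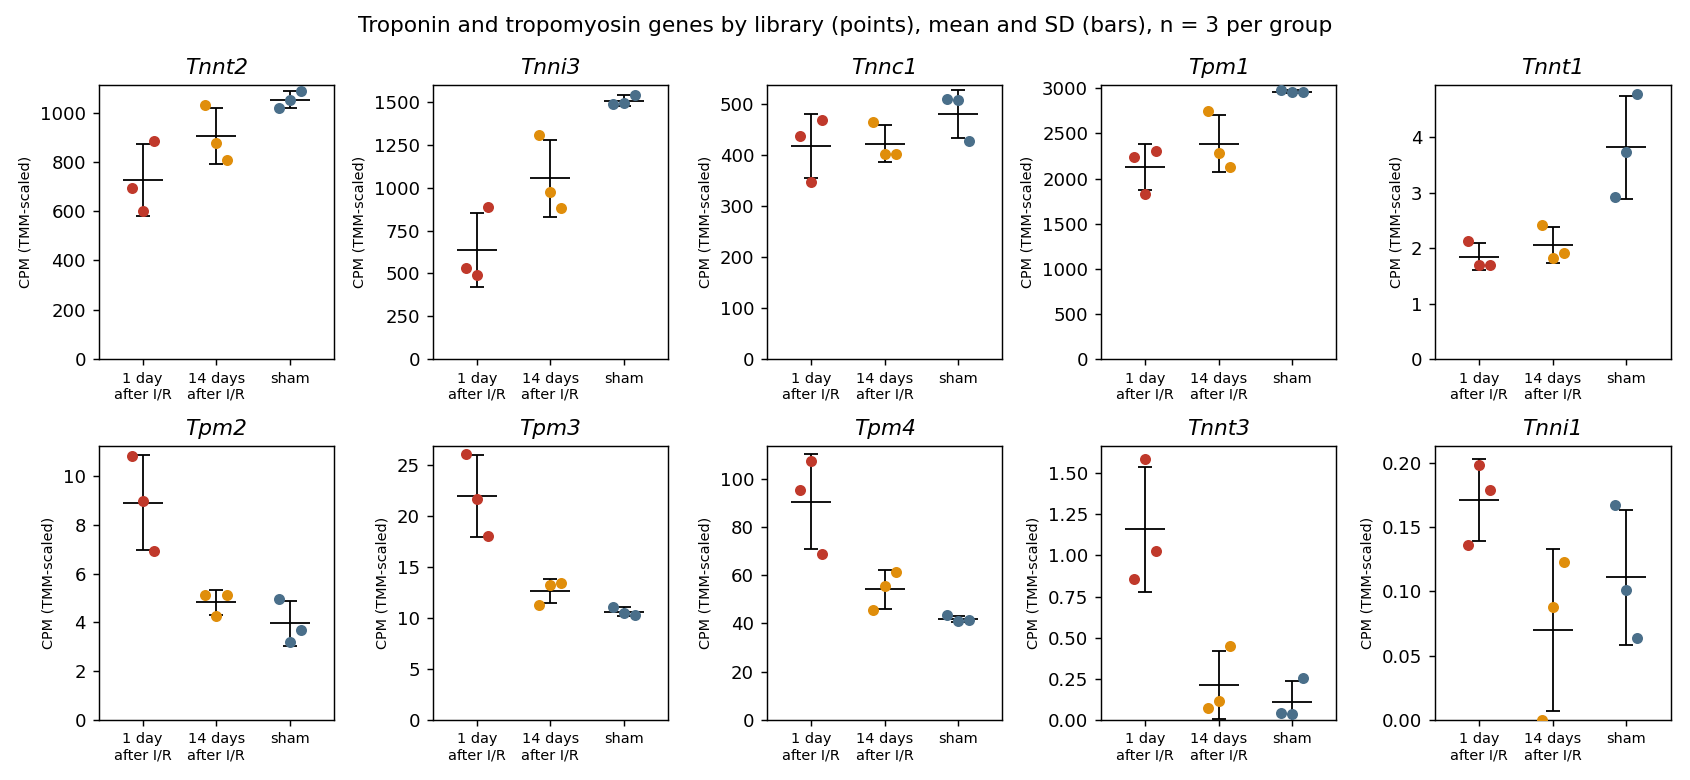
CPM (vertical axes, linear, from 0) of the 10 genes at 1 day after I/R, at 14 days after I/R and in sham, with a point per library and bars for the mean and SD of 3 libraries. Tnni3 averaged 635 CPM at 1 day and 1509 CPM in sham, while Tpm4 averaged 90.6 CPM at 1 day and 42.0 CPM in sham.

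The skeletal troponin genes had low counts. Tnnt1, the slow skeletal troponin T, had 2.13, 1.71 and 1.70 CPM at 1 day, 2.42, 1.82 and 1.92 CPM at 14 days, and 2.93, 3.74 and 4.79 CPM in sham. Both times lay below every sham library. Tnnt1 fell by 1.01 on the log2 scale at 1 day (SE 0.21, edgeR adjusted p = 0.00189; 0.109 under total count only) and by 0.88 at 14 days (SE 0.21, edgeR adjusted p = 0.0184). It was the only one of the 9 tested genes called at 14 days against sham, where 14.4% of all tested genes were called (8.75% higher and 5.64% lower). Groups did not overlap in that comparison for 5 of the 9, Tnnt1, Tnni3 and Tpm1 lower and Tpm3 and Tpm4 higher, against 39.3% of all tested genes (20.9% higher and 18.4% lower). Under total count only, none of the 9 was called at 14 days against sham, and 720 of 832 calls were higher in place of 1236 of 2033. Between 14 days and 1 day its log2 fold was 0.13 (edgeR adjusted p = 0.622), and -0.28 under total count only. The 14-day call was lost without sham mouse 2 or 3, library B or library C and under total count only (adjusted p from 0.0611 to 0.0868). The ratio of Tnnt1 to Tnnt2 counts overlapped between 1 day and sham, and was lower at 14 days, with a log2 difference of -0.65 (exact permutation p = 0.1).

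Tnnt3, the fast skeletal troponin T, had 38, 40 and 23 counts at 1 day, 2, 4 and 11 counts at 14 days, and 1, 1 and 4 counts in sham. In CPM these are 0.859, 1.59 and 1.03 at 1 day, 0.0692, 0.117 and 0.449 at 14 days, and 0.0418, 0.0337 and 0.255 in sham. The 1-day libraries stood above all others, and 14 days overlapped sham. Since it passed the filter only through the 1-day libraries, its fitted folds against that group are given as a description. The fitted log2 fold was 3.62 at 1 day against sham (SE 0.69, edgeR adjusted p = 0.00121). The summed counts, 101 at 1 day against 6 in sham, gave a ratio of rates of 12.7 with a 95% interval of 5.64 to 35.4 that covers counting error only. Without sham mouse 3, which held 4 of the 6 sham counts, the fitted log2 fold was 4.78. At 14 days against 1 day the fitted log2 fold was -2.50 (SE 0.56, edgeR adjusted p = 0.00340), and -3.50 without library C.

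The summed level of other fast skeletal genes overlapped in all groups. Of 15 fast skeletal markers 4 passed the filter, and their summed level was 15.4 to 24.4 CPM at 1 day, 20.8 to 23.5 CPM at 14 days and 16.7 to 24.02 CPM in sham. Mybpc2, fast skeletal myosin-binding protein C, rose at 1 day (11.5 ± 3.50 CPM, against 5.78 ± 2.27 CPM in sham, SD, n = 3 each, log2 fold 0.97, edgeR adjusted p = 0.0123). Cacna1s, the skeletal muscle L-type calcium channel, fell (1.83 ± 1.05 CPM, against 4.66 ± 0.39 CPM in sham, log2 fold -1.41, edgeR adjusted p = 0.00498). Pvalb was at 0 in every 1-day library and Mylk2 in every sham library.

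Tnni1, slow skeletal and fetal troponin I, had 6, 5 and 4 counts at 1 day, 0, 3 and 3 counts at 14 days, and 4, 3 and 1 counts in sham. Its summed counts, 15 at 1 day against 8 in sham, gave a ratio of rates of 1.42 (95% counting interval 0.563 to 3.85). For 14 days against sham, with 6 against 8 counts, the ratio was 0.593 (0.170 to 1.95). No difference of its level from sham was detectable at this depth. Relative to Tnni3, which stood at 12357 to 23441 counts at 1 day and 24189 to 44340 counts in sham, Tnni1 counts were at most 0.000445 of the Tnni3 counts in any library (pseudocount 0.5). That ratio was 3.57 times the sham ratio at 1 day, with groups apart (exact permutation p = 0.1), and overlapped sham at 14 days. It was lower at 14 days than at 1 day, with groups apart. The fall of Tnni3 at 1 day enters the ratio, so a change of Tnni1 itself cannot be read from it.

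The fast skeletal genes Tnni2 and Tnnc2 are partners of Tnnt3 in fast fibres. Tnni2 had 21, 5 and 6 counts at 1 day, 5, 7 and 8 counts at 14 days, and 11, 6 and 4 counts in sham. The ratio of its rates at 1 day against sham was 1.15 (95% counting interval 0.643 to 2.10). Tnnc2 had 1 count in all at 1 day, 3 at 14 days and 3 in sham, and shares 74.0% of its exonic bases with Ube2c. Neither passed the filter.

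Tnni3k, the cardiac kinase named for binding troponin I, had 17.3, 17.8 and 33.8 CPM at 1 day, 53.3, 44.7 and 36.1 CPM at 14 days, and 55.1, 59.7 and 65.9 CPM in sham. It fell by 1.40 on the log2 scale at 1 day against sham (SE 0.25, edgeR adjusted p = 0.00117) and was higher by 0.97 at 14 days against 1 day (SE 0.24, edgeR adjusted p = 0.00840). Its log2 fold of -0.43 at 14 days against sham (edgeR adjusted p = 0.264) was not called.

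Among the tropomyosins, Tpm1 is the main sarcomeric gene of the ventricle, and it fell at 1 day while the others rose. Tpm1 had 2240, 1832 and 2304 CPM at 1 day, 2747, 2283 and 2133 CPM at 14 days, and 2980, 2956 and 2956 CPM in sham. Every library after I/R lay below sham. Its log2 fold at 1 day against sham was -0.48 (SE 0.18, edgeR adjusted p = 0.0439), close to the threshold, and 0.0065 under total count only. Between 14 days and 1 day it was 0.17 (edgeR adjusted p = 0.463). The 1-day call was also lost with no filter on low counts, with the 1-day and sham groups fitted alone, and without sham mouse 1, 2 or 3, mouse 4, mouse 5 or library B (edgeR adjusted p from 0.0585 to 0.139). Its log2 fold of -0.31 at 14 days against sham (SE 0.18, edgeR adjusted p = 0.278) was not called. The ratio of Tpm1 to Tnnt2 counts lay near that of sham. Values of 3.23, 3.06 and 2.5995 at 1 day overlapped 2.93, 2.81 and 2.72 in sham (exact permutation p = 0.6), while 2.67, 2.61 and 2.64 at 14 days lay just below sham.

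Tpm4 had 95.4, 107 and 68.8 CPM at 1 day, 45.6, 55.6 and 61.4 CPM at 14 days, and 43.4, 41.2 and 41.4 CPM in sham. It rose at 1 day by 1.11 on the log2 scale (SE 0.16, edgeR adjusted p = 2.31e-04). At 14 days, all libraries lay above sham, with a log2 fold of 0.37 (SE 0.16, edgeR adjusted p = 0.139) that did not pass. It did pass without mouse 6 (adjusted p = 0.0243), without library A (adjusted p = 0.04999) and with the 2 groups fitted alone (adjusted p = 0.0349). Tpm4 shares 134 exonic bases with the antisense gene Gm26586, which had at most 0.0448 CPM.

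Tpm3 had 26.1, 21.6 and 18.05 CPM at 1 day, 11.2, 13.2 and 13.4 CPM at 14 days, and 11.05, 10.5 and 10.2 CPM in sham. It rose by 1.05 on the log2 scale at 1 day (SE 0.13, edgeR adjusted p = 1.10e-04). At 14 days against sham its log2 fold was 0.25 (SE 0.13, edgeR adjusted p = 0.234), not called. Tpm3 has a near copy elsewhere in the genome, Tpm3-rs7, which had 11.1, 8.85 and 7.48 CPM at 1 day, 3.98, 4.01 and 4.98 CPM at 14 days, and 4.603, 3.37 and 3.77 CPM in sham. Reads could be split between the pair, so the level of Tpm3 is uncertain.

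Tpm2 had 10.8, 9.01 and 6.94 CPM at 1 day, 5.12, 4.25 and 5.15 CPM at 14 days, and 4.98, 3.20 and 3.70 CPM in sham. It rose by 1.19 on the log2 scale at 1 day (SE 0.20, edgeR adjusted p = 5.21e-04) and overlapped sham at 14 days (log2 fold 0.29, edgeR adjusted p = 0.368). Tpm2, Tpm3 and Tpm4 all fell between 1 day and 14 days, by 0.90, 0.81 and 0.74 on the log2 scale (edgeR adjusted p = 0.00224, 4.53e-04 and 0.00235). With Tnnt3 lower, which its filtering had fixed, and Tnni3 higher, 5 of 9 genes were called in that comparison, where 51.9% of all tested genes were called (25.1% higher and 26.8% lower). Groups did not overlap for Tnnt3, Tpm2, Tpm3 and Tpm4, all lower, against 56.3% of all tested genes (27.3% higher and 29% lower), nor for the untested Tnni1. Under total count only, 1067 of 6536 calls were higher in place of 3547 of 7335.

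**Figure D2:**
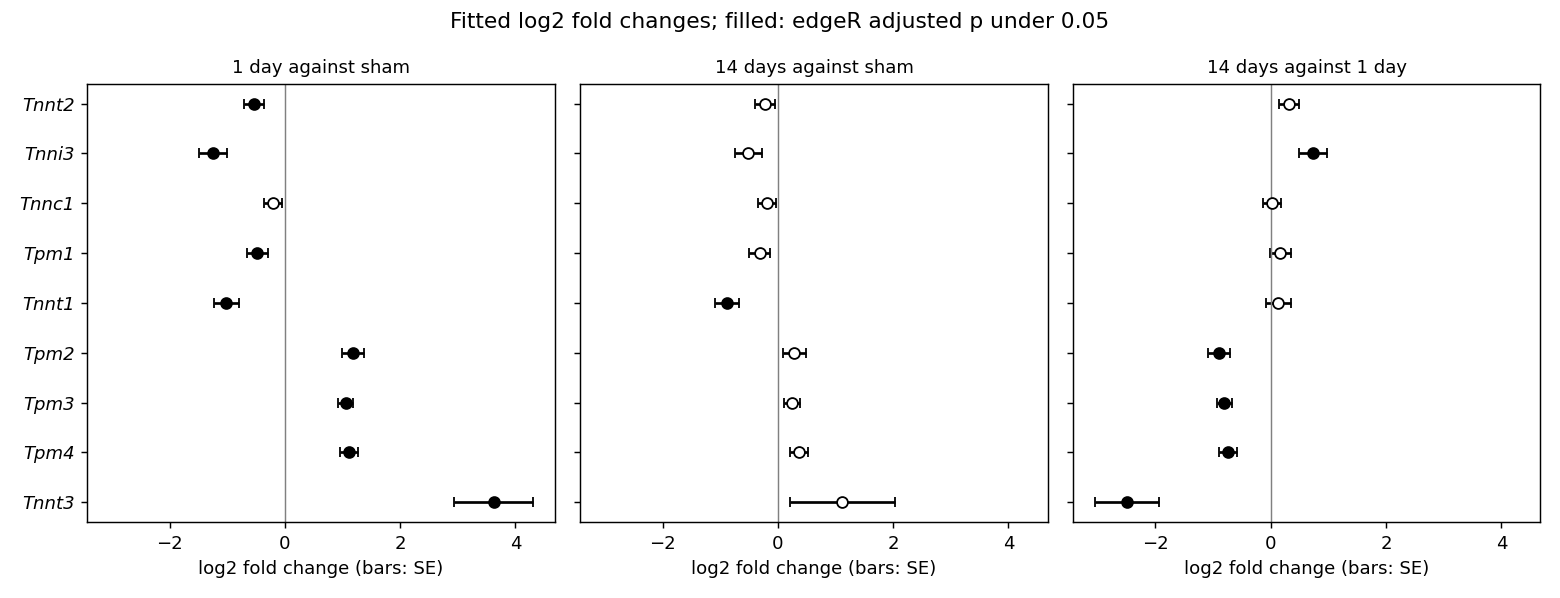
Fitted log2 fold changes (horizontal axes) of the 9 tested genes in the 3 comparisons, with bars for the SE and filled points for an edgeR adjusted p under 0.05. At 1 day against sham Tpm2, Tpm3 and Tpm4 lie between 1.05 and 1.19 and Tnni3 at -1.25, and at 14 days against sham Tnnt1 is the only filled point. Under total count only, Tnnc1 and Tpm1 at 1 day against sham, and Tnnt1, Tnnt2, Tnnc1 and Tpm1 at 14 days against 1 day, have the other sign.

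Counted against Tpm1 in the same library, the minor tropomyosins stood higher than in sham at both times. The ratio of Tpm4 to Tpm1 counts was 0.0426, 0.0586 and 0.0299 at 1 day, 0.0166, 0.0243 and 0.0288 at 14 days, and 0.0146, 0.0139 and 0.0140 in sham. The sham libraries were close together and every library after I/R lay above them. The geometric mean of the ratio was 2.97 times that of sham at 1 day and 1.60 times at 14 days (exact permutation p = 0.1 for each, the smallest possible). For Tpm3 to Tpm1 the corresponding values were 2.87 and 1.48 times sham, and for Tpm2 to Tpm1 they were 3.15 and 1.54 times sham, with no overlap with sham at either time. All of these ratios were lower at 14 days than at 1 day, with log2 differences of -1.03 for Tpm2, -0.95 for Tpm3 and -0.89 for Tpm4, and groups apart.

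**Figure D3:**
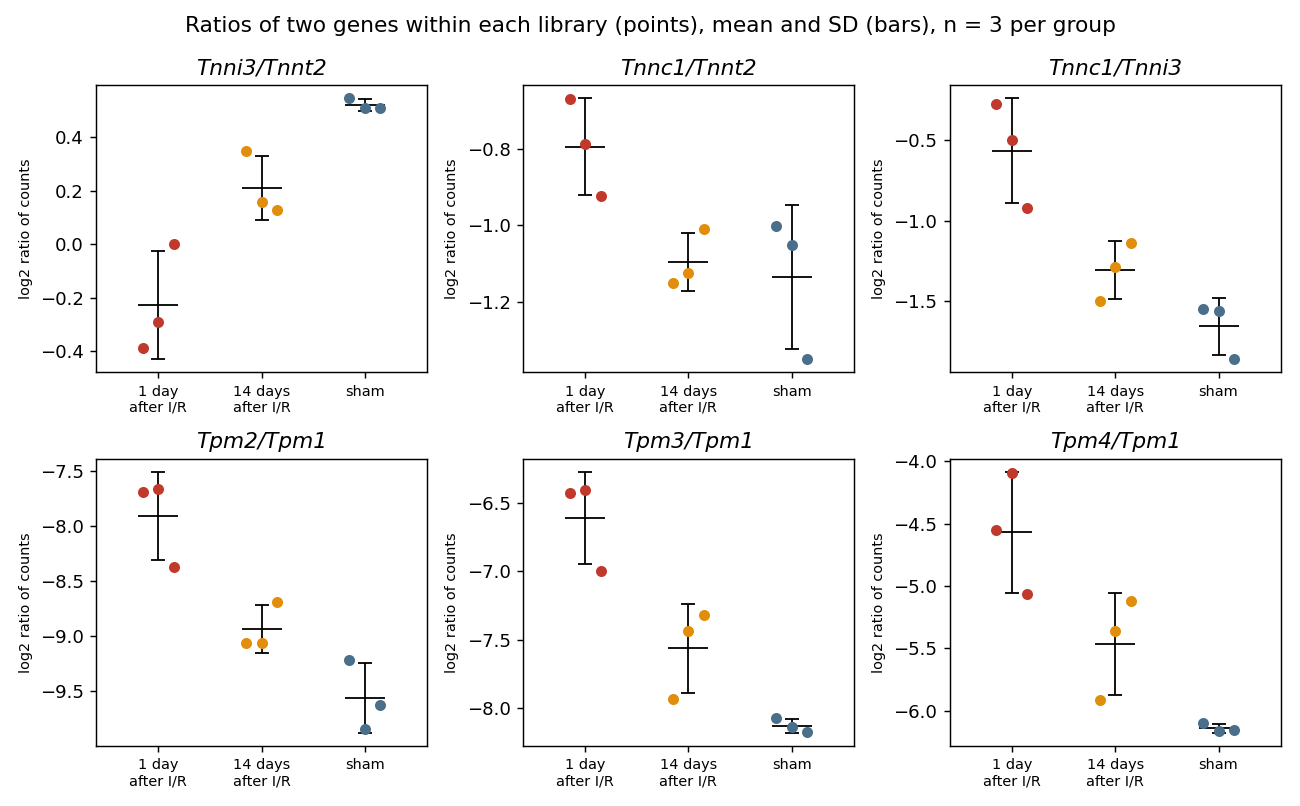
Log2 ratios of the counts of 2 genes within each library (vertical axes, not starting at 0) for 6 pairs, with a point per library and bars for the mean and SD of 3 libraries per group. Tnni3/Tnnt2 averaged -0.23 at 1 day, 0.21 at 14 days and 0.52 in sham, and Tpm4/Tpm1 averaged -4.57 at 1 day, -5.46 at 14 days and -6.14 in sham.

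Levels of different genes were compared per length, as CPM per kilobase of merged exons. In sham, Tnni3 was highest at 731 ± 15.2 CPM per kilobase (SD, n = 3), apart from Tnnc1 at 461 ± 45.1. Tnnc1 and Tpm1 (457 ± 2.10) overlapped, followed by Tnnt2 at 136 ± 4.39, Tpm4 at 19.1 ± 0.556, Tpm3 at 1.74 ± 0.0696, Tnnt1 at 1.73 ± 0.423, Tpm2 at 1.36 ± 0.315, Tnnt3 at 0.0697 ± 0.0794 and Tnni1 at 0.0308 ± 0.0146. In sham, Tnnt1 overlapped both of its neighbours in that order, and Tnnt3 overlapped Tnni1. At 1 day the first 3 were Tnnc1 at 400 ± 59.8, Tpm1 at 328 ± 39.4 and Tnni3 at 308 ± 105, and neighbours among these overlapped. At 14 days Tnni3 came first at 512 ± 109, overlapping Tnnc1 at 405 ± 34.7, which overlapped Tpm1 at 368 ± 49.4.

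The order among the abundant genes depended on the length used. Merged exons of Tnnt2 cover 7752 bases, against 1200 for its longest coding transcript. With the median length of coding transcripts, the sham order was Tnni3, Tpm1, Tnnt2, Tnnc1, and the 1-day order was Tpm1, Tnni3, Tnnt2, Tnnc1, with Tpm1 and Tnni3 overlapping at 1 day.

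Isoform use was read as each gene's share of its family per kilobase of merged exons. Cardiac Tnnt2 made up 98.3% ± 0.510 of troponin T at 1 day, 99.1% ± 0.162 at 14 days and 98.7% ± 0.312 in sham (SD, n = 3 each). Tnnt3 contributed 0.808% ± 0.398 at 1 day, 0.122% ± 0.128 at 14 days and 0.0495% ± 0.0552 in sham, and Tnnt1 contributed 0.901% ± 0.207, 0.790% ± 0.0571 and 1.25% ± 0.262 in the same groups. In troponin I, Tnni1 made up 0.0165% ± 0.00600 at 1 day, 0.00437% ± 0.00404 at 14 days and 0.00423% ± 0.00206 in sham, from trace counts. In tropomyosin, Tpm1 made up 87.1% ± 3.53 at 1 day, 92.7% ± 1.72 at 14 days and 95.4% ± 0.165 in sham. Tpm4 made up most of the rest, with 11.1% ± 3.23 at 1 day, 6.33% ± 1.58 at 14 days and 3.98% ± 0.0907 in sham. Its groups at both times lay above sham. With median coding transcript lengths the Tpm4 shares were 3.19%, 1.74% and 1.07% in the same groups, so the size of the share depended on the length and its order across groups did not. With those lengths Tnnt3 contributed 0.182% of troponin T at 1 day, 0.0274% at 14 days and 0.0111% in sham. Tnnt1 then contributed 0.362% at 1 day, 0.315% at 14 days and 0.501% in sham.

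The cardiac members were also set against the other cardiomyocyte genes. Of the 15 markers, which include Myh6, Atp2a2, Ryr2 and Ttn and none of the 10 genes, 12 fell and none rose at 1 day against sham (median log2 fold -1.11, against 0.0445 over all tested genes). Among all tested genes, 24.8% were called lower and 29.4% higher. Myh6, the fast cardiac myosin heavy chain, had 3429 ± 1620 CPM at 1 day and 9144 ± 809 CPM in sham (SD, n = 3 each, log2 fold -1.42, edgeR adjusted p = 0.00312). Atp2a2, the calcium pump of the sarcoplasmic reticulum, had 1926 ± 970 CPM at 1 day and 4825 ± 398 CPM in sham (log2 fold -1.32, edgeR adjusted p = 0.00392). At 14 days against sham 1 of the 15 was called, Ckm, muscle creatine kinase (log2 fold -0.67, edgeR adjusted p = 0.0273). Of all tested genes, 14.4% were called in that comparison.

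Relative to the geometric mean of these 15 genes in the same library, Tnnt2, Tnnc1 and Tpm1 stood higher at 1 day than in sham and Tnni3 stood lower. The ratio for Tnnc1 was 0.630, 0.572 and 0.431 at 1 day, 0.314, 0.332 and 0.361 at 14 days, and 0.315, 0.321 and 0.289 in sham. For Tpm1 it was 3.23, 3.02 and 2.12 at 1 day, 1.86, 1.89 and 1.92 at 14 days, and 1.85, 1.87 and 2.001 in sham. For Tnni3 it was 0.765, 0.809 and 0.817 at 1 day, 0.886, 0.808 and 0.794 at 14 days, and 0.923, 0.947 and 1.05 in sham. The log2 differences of 1 day from sham were 0.80 for Tnnc1, 0.53 for Tpm1, 0.46 for Tnnt2 and -0.28 for Tnni3, all with groups apart (exact permutation p = 0.1, the smallest possible). At 14 days Tnni3 was the only one of the 4 apart from sham, at -0.23. Mouse 6 lay nearest to sham in all 4 of these ratios at 1 day.

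**Figure D4:**
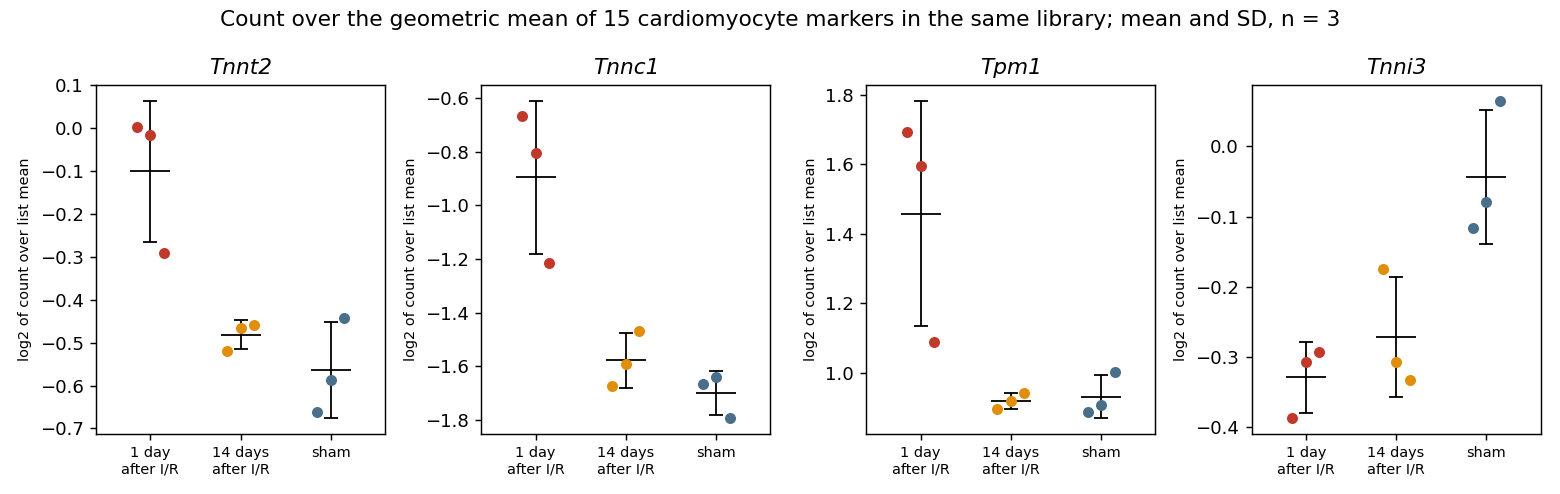
Log2 of the count of Tnnt2, Tnnc1, Tpm1 and Tnni3 over the geometric mean count of 15 cardiomyocyte markers in the same library (vertical axes, not starting at 0), with a point per library and bars for the mean and SD of 3 libraries per group. Tnnc1 averaged -0.90 at 1 day, -1.58 at 14 days and -1.70 in sham, and Tnni3 averaged -0.33 at 1 day, -0.27 at 14 days and -0.044 in sham.

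Markers of other cell types moved with these groups as well. Against sham, 54.1% of all tested genes were called at 1 day and 14.4% at 14 days. The 6 tested neutrophil genes of 8 all rose at 1 day, with a summed level of 47.7 to 130 CPM at 1 day, 2.18 to 3.35 CPM at 14 days and 1.67 to 4.53 CPM in sham, and Ly6g was at 0 in all 9 libraries. Of the 6, Mmp8 had 0.403 to 0.913 CPM at 1 day, at most 0.163 CPM at 14 days and at most 0.0639 CPM in sham. It passed the filter only through the 1-day libraries, so its rise was built into the filter and lends the count no support. Lcn2 had 56.2 ± 22.5 CPM at 1 day and 0.489 ± 0.0631 CPM in sham (SD, n = 3 each, edgeR adjusted p = 6.19e-06), and Csf3r, the receptor of granulocyte colony-stimulating factor, 21.1 ± 10.5 CPM at 1 day and 1.21 ± 0.454 CPM in sham. Of 10 monocyte and macrophage genes, 8 rose at 1 day and 6 at 14 days against sham, with summed levels of 244 to 279 CPM at 1 day, 174 to 343 CPM at 14 days and 113 to 126 CPM in sham. Lyz2, a lysozyme of myeloid cells, had 110 ± 7.76 CPM at 1 day, 155 ± 51.0 CPM at 14 days and 60.7 ± 3.02 CPM in sham. Of 10 fibroblast genes, 2 rose and 3 fell at 1 day and 8 rose at 14 days against sham, with summed levels of 944 to 1177 CPM at 1 day, 2489 to 5623 CPM at 14 days and 947 to 1421 CPM in sham. Col3a1, a fibrillar collagen, had 1520 ± 684 CPM at 14 days and 240 ± 127 CPM in sham (edgeR adjusted p = 0.00544).

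Tpm2 and Tpm4 are also genes of smooth muscle, and the 12 smooth muscle and pericyte markers went both ways. At 1 day against sham, 4 rose (Cnn1, Tagln, Des, Pdgfrb) and 5 fell (Smtn, Acta2, Rgs5, Kcnj8, Abcc9). Cnn1 had 2.47 to 4.76 CPM at 1 day, at most 0.623 CPM at 14 days and at most 0.383 CPM in sham. It passed the filter only through the 1-day libraries, so its rise lends the count no support. Of all tested genes, 29.4% were called higher and 24.8% lower. The median log2 fold of the 12 was -0.18, or 0.30 under total count only. The summed level of 1803 to 2296 CPM at 1 day, against 1387 to 1491 CPM in sham, was mostly Des, desmin, which cardiomyocytes also express. Rgs5, a pericyte gene, had 179 ± 57.9 CPM at 1 day and 363 ± 7.55 CPM in sham (edgeR adjusted p = 0.00131). Of 3 tested platelet genes 1 rose at 1 day, Pf4, with a summed list level of 9.58 to 13.5 CPM at 1 day and 5.69 to 11.4 CPM in sham. Of 8 endothelial genes, 4 fell at 1 day, among them Kdr, the main endothelial receptor of vascular growth factor (60.8 ± 9.77 CPM at 1 day and 144 ± 7.08 CPM in sham). The part of these cell types in the levels of Tpm2, Tpm3 and Tpm4 was not tested.

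**Figure D5:**
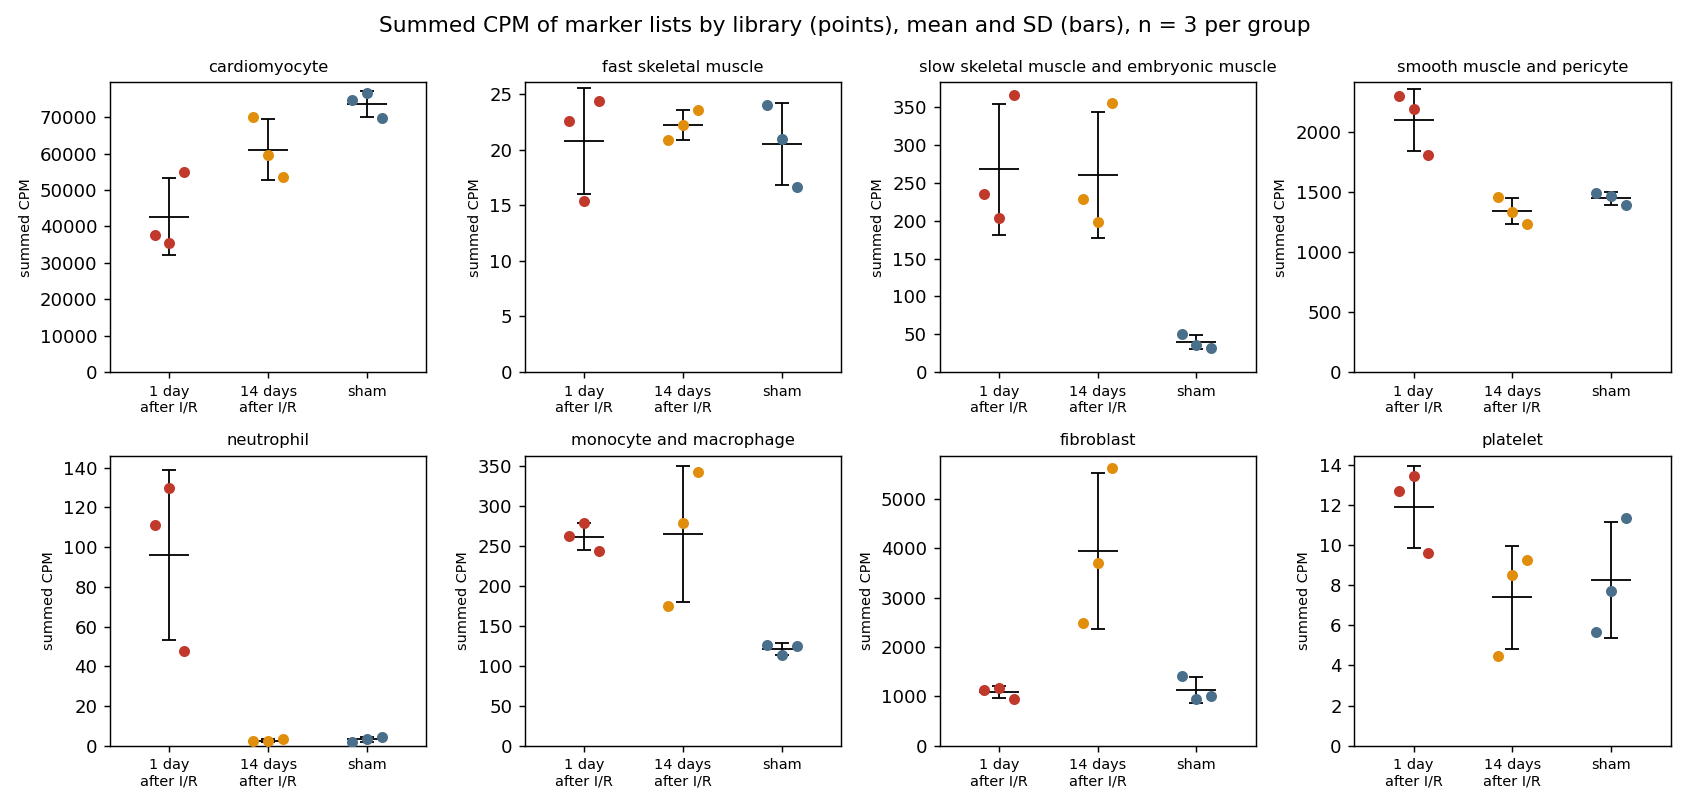
Summed CPM of 8 marker lists (vertical axes, linear, from 0) at 1 day after I/R, at 14 days after I/R and in sham, with a point per library and bars for the mean and SD of 3 libraries per group. The neutrophil sum is 47.7 to 130 CPM at 1 day and at most 4.53 CPM in the other libraries, the fibroblast sum is highest at 14 days, and the fast skeletal sum overlaps in all groups.

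Not all genes of the slow and fetal muscle programme were at trace level. Myh7, the slow myosin heavy chain that is the fetal ventricular form in mice, had 263 ± 82.7 CPM at 1 day, 243 ± 83.4 CPM at 14 days and 14.9 ± 5.24 CPM in sham (SD, n = 3 each). It rose at both times, by log2 folds of 4.14 (edgeR adjusted p = 3.00e-05) and 4.02 (edgeR adjusted p = 0.00121). Tnnt1 was lower than sham at both times, and Tnni1 did not differ detectably. Myh7b, a relative of Myh7, fell at 1 day against sham (4.88 ± 3.87 CPM, against 24.1 ± 4.27 CPM, edgeR adjusted p = 0.00220). Nppa, atrial natriuretic peptide, rose at 1 day (log2 fold 3.85, edgeR adjusted p = 4.39e-05) and at 14 days (log2 fold 3.58, edgeR adjusted p = 0.00151), while Sln and Bmp10, other atrial genes, were at 0 in every 1-day and sham library. Of the 13 slow and embryonic genes 2 passed the filter, and Myf5 and Pax7, genes of skeletal muscle progenitors, were at 0 in all 9 libraries.

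Other genes of the thin filament went both ways. Of 17 tested genes for actins, filament caps and length regulators, 3 rose and 6 fell at 1 day against sham. Over all tested genes, 54.1% were called there (29.4% higher and 24.8% lower), so calls were common. The median log2 fold of the 17 was -0.31, and 0.14 under total count only. Acta1, skeletal alpha-actin, had 287 ± 46.4 CPM at 1 day, 211 ± 62.3 CPM at 14 days and 131 ± 17.5 CPM in sham (SD, n = 3 each). It rose at 1 day (log2 fold 1.14, edgeR adjusted p = 0.00102) and at 14 days (log2 fold 0.69, edgeR adjusted p = 0.0477). Nebl, the cardiac nebulin relative nebulette, fell to 139 ± 38.9 CPM at 1 day, against 295 ± 17.1 CPM in sham (edgeR adjusted p = 4.81e-04), and Tmod1, which caps the pointed filament end, fell to 92.7 ± 21.8 CPM, against 153 ± 6.76 CPM in sham (edgeR adjusted p = 0.00245). At 14 days against sham, Tmod2, Tmod3 and Acta1 were higher and Acta2, smooth muscle alpha-actin, was lower, with 13 of 17 not called. Of all tested genes, 14.4% were called in that comparison. Tmod2 had 9.37 ± 2.32 CPM at 14 days and 4.76 ± 0.490 CPM in sham (edgeR adjusted p = 0.00578). Tmod3 had 40.4 ± 3.78 CPM at 14 days and 30.1 ± 2.74 CPM in sham (edgeR adjusted p = 0.0201).

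Of 21 genes for kinases, phosphatases and proteases that act on troponin or tropomyosin, 6 rose and 7 fell at 1 day against sham (median log2 fold 0.01, and 0.50 under total count only). Among all tested genes, 29.4% were called higher and 24.8% lower. Prkaca, the catalytic subunit of protein kinase A, which phosphorylates the extension of troponin I printed above, fell to 52.9 ± 7.72 CPM, against 88.0 ± 2.17 CPM in sham (log2 fold -0.74, edgeR adjusted p = 3.93e-04). Trim63, a ubiquitin ligase that binds troponin I, fell to 40.5 ± 9.60 CPM, against 74.0 ± 7.42 CPM in sham (edgeR adjusted p = 0.00116). Capn2, the large subunit of m-calpain, a calcium-activated protease, rose to 80.3 ± 9.67 CPM, against 39.8 ± 0.761 CPM in sham (log2 fold 1.02, edgeR adjusted p = 4.90e-05). Against sham, 4 rose, none fell and 17 were not called at 14 days, when 8.75% of all tested genes were called higher and 5.64% lower. Mmp2, a matrix protease that can also cut troponin I inside the cell, had 98.1 ± 38.5 CPM at 14 days and 28.3 ± 4.54 CPM in sham (log2 fold 1.79, edgeR adjusted p = 0.00596). The other 3 were the protein kinase C genes Prkcb and Prkcd and the kinase gene Pak1, with log2 folds of 0.74, 0.62 and 1.75 (edgeR adjusted p = 0.0458, 0.0247 and 0.0219).

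The count table holds gene totals and does not show which exons were used. Of 17 tested splicing factors known to act on exons of Tnnt2, Tnnt3, Tpm1 or Tpm2, 8 rose and 4 fell at 1 day against sham (median log2 fold 0.26, and 0.74 under total count only). The shares over all tested genes were 29.4% higher and 24.8% lower. Srsf1, an exon-enhancer binding factor, had 78.8 ± 9.86 CPM at 1 day and 59.7 ± 2.91 CPM in sham (log2 fold 0.40, edgeR adjusted p = 0.00706). Celf1, which promotes the embryonic exon of Tnnt2, had 74.4 ± 3.32 CPM at 1 day and 58.9 ± 4.11 CPM in sham (log2 fold 0.34, edgeR adjusted p = 0.0104). Qk, an RNA-binding factor of muscle splicing, had 334 ± 34.6 CPM at 1 day and 456 ± 16.6 CPM in sham (log2 fold -0.45, edgeR adjusted p = 0.0134). Mbnl3 was higher at 14 days against sham (log2 fold 1.34, edgeR adjusted p = 0.0210) and Rbm38 lower (log2 fold -0.91, edgeR adjusted p = 0.0113). Esrp1, an epithelial splicing factor, was at 0 in all 9 libraries.

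Of 17 tested transcription factors of striated muscle promoters, 3 rose and 4 fell at 1 day against sham (median log2 fold -0.14, and 0.34 under total count only). Among all tested genes, 29.4% were called higher and 24.8% lower. Mef2a had 72.1 ± 18.7 CPM at 1 day and 133 ± 7.06 CPM in sham (log2 fold -0.89, edgeR adjusted p = 8.68e-04), and Mef2c had 39.2 ± 3.47 CPM at 1 day and 53.6 ± 1.97 CPM in sham (log2 fold -0.45, edgeR adjusted p = 0.00185). The 3 that rose were TEAD genes, whose products bind the MCAT letters shown above, with Tead3 at 4.52 ± 0.478 CPM at 1 day and 3.19 ± 0.5001 CPM in sham (log2 fold 0.49, edgeR adjusted p = 0.0236). Tead1, a TEAD gene with a far higher level in sham, was not called at 1 day. Binding to these letters was not tested. Against sham, 7 fell and none rose at 14 days (median log2 fold -0.30, and -0.22 under total count only). The shares over all tested genes were then 5.64% lower and 8.75% higher. Tead1 had 81.4 ± 5.61 CPM at 14 days and 101 ± 3.50 CPM in sham (log2 fold -0.32, edgeR adjusted p = 0.0438). Myocd, the cofactor of serum response factor, had 40.8 ± 7.17 CPM at 14 days and 64.3 ± 4.59 CPM in sham (log2 fold -0.66, edgeR adjusted p = 0.00817).

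Of the genes named here, Tagln, Nppa, Tmod1, Capn2, Cacna1s, Smtn, Ckm, Rbm38 and Myh7 share at least 10% of their exonic bases with genes on the other strand, so their counts are uncertain without the strand setting.

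Between 14 days and 1 day, 8 of the 15 cardiomyocyte genes rose and none fell, with Myh6 higher by a log2 fold of 0.92 (edgeR adjusted p = 0.0289) and Atp2a2 by 0.88 (edgeR adjusted p = 0.0320). In the same comparison, 5 thin filament genes rose, among them Nebl (log2 fold 1.00) and Nexn, nexilin (log2 fold 0.61), and Capza1, an actin-capping subunit, fell (log2 fold -0.58). Of the troponin and tropomyosin kinases and proteases 7 rose and 6 fell, of the splicing factors 2 rose and 7 fell, and of the transcription factors 3 rose and 7 fell. In this comparison 51.9% of all tested genes were called, 25.1% higher and 26.8% lower.

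Over the 9 libraries, the genes whose log2 CPM followed a member most closely were listed among 5523 genes with at least 10 CPM. The libraries fall into 3 groups, so a high r can come from the group means alone, and it is given as a description. For Tnni3 they were Stard7 (Pearson r 0.999), Ndufb9 (0.997) and Rtn2 (0.997). For Tnnt2 they were Eci2 (0.989), Suclg1 (0.988) and Abcc8 (0.987), and for Tnnt1 Znrf1 (0.969), Ppp5c (0.959) and Cox5b (0.954). For Tpm4 they were Lyst (0.995), Acot9 (0.994) and Map1b (0.994), and for Tpm2 Golgb1 (0.981), Oxsr1 (0.981) and Rnf19b (0.976).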

How the data were processed

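RNA of 9 mice (3 per group) was compared across 3 groups. The authors deposited raw counts: each value is a whole number of reads per gene without scaling. Per the labels' protocols, libraries were stranded and made from total RNA with ribosomal RNA removed. The tool STAR 2.7.1a and the build GRCm38 (mm10) are named in the submitters' processing notes. Not given in the sources used here are the read counter, annotation release and strand setting, so genes with near copies or shared exons are uncertain.

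Counts were tested with edgeR 4.0.16 in R 4.3.3 (quasi-likelihood test, robust, TMM scaling, its filter on low counts, 1 fit of 9 libraries, Benjamini-Hochberg adjustment over 14124 genes, threshold 0.05). SE belong to the fitted log2 folds. Ratios used a pseudocount of 0.5 and two-sided exact permutation tests. A ratio given as a multiple of the sham ratio compares geometric means of the libraries. GENCODE M21 named 36345 of 38293 table genes and gave positions and lengths. Sequences before gene starts are from RefSeq. Replicates differed by more than sampling noise (chi-square per degree of freedom 6.90 to 89.7), and the labels give no batch and no replicate numbers shared between groups. P-values measure the spread between these mice. The members and the 15 other gene lists were chosen with earlier results of these data known. Named with values were all members, the other troponin genes and the genes most alike by Pearson r. From each other list, genes were drawn from a set given by a rule. The set held all called genes if at most 5 were called, otherwise the 2 of highest CPM on the side with more calls and 1 of the opposite side. Not all of that set is printed. Left out are, among others, the endothelial genes called at 1 day other than Kdr and the fibroblast genes called at 1 day. The smooth muscle list is not described at 14 days. Alternatives were other scalings, filters and fits, DESeq2 1.42.0, limma-voom (limma 3.58.1), testing for changes beyond 2-fold and leaving out 1 library at a time. The test was tried on simulated counts with known changes.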

Additional observations from a re-analysis of the deposited data

How the results depend on the processing

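The ratios within libraries moved by less than 1 SD in all 336 alternatives, and those whose groups did not overlap kept their direction. For alternatives with 1 library left out, this outcome was fixed in advance. Dropping 1 of 3 libraries cannot move the difference by 1 SD (pooled over the 2 groups) or turn around groups that lie apart. Only another pseudocount and the ratio of summed counts could have come out otherwise. With 1 library left out, ratios with groups apart numbered 12 to 13 at 1 day against sham (13 without sham mouse 1, mouse 4 or mouse 6). They numbered 8 to 10 at 14 days against sham (10 without sham mouse 3, 9 without library A) and 11 to 13 at 14 days against 1 day (13 without mouse 6). These counts could only stay or rise, since leaving out a library cannot make groups that lie apart overlap. They therefore lend no support. Of 539 alternative log2 folds of the 9 genes, 486 kept their direction and their side of the threshold, 38 lost a call, 6 gained one and 9 changed sign. Tnni3, Tnnt3, Tpm2, Tpm3 and Tpm4 at 1 day against sham, and Tnnt3, Tpm2, Tpm3 and Tpm4 at 14 days against 1 day, were called in all 19 alternatives other than the test against a 2-fold change (Tnnt3 having passed the filter only through its 1-day libraries). With Tnnt3 set aside, their adjusted p was at most 0.00878 at 1 day against sham (Tnni3) and 0.0149 at 14 days against 1 day (Tpm2).

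Under total count only, 5 members were called at 1 day against sham, 0 at 14 days against sham, where 832 genes were called in place of 2033. In that setting the log2 folds that changed sign were 0.27 for Tnnc1 and 0.0065 for Tpm1 at 1 day against sham, and -0.28 for Tnnt1, -0.065 for Tnnt2, -0.37 for Tnnc1 and -0.23 for Tpm1 at 14 days against 1 day. These follow the shift of all genes by 0.484 and -0.388. Tested against a 2-fold change, which asks for a larger difference, 1 member, Tnnt3, was called at 1 day against sham (810 genes), 0 at 14 days against sham (39 genes) and 0 at 14 days against 1 day (626 genes). As Tnnt3 passed the filter only through its 1-day libraries, that call lends no support. With the 2 groups fitted alone, 3 members and 2853 genes were called at 14 days against sham.

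With each library left out, 478 (without sham mouse 2) to 3220 genes (without mouse 6) were called at 14 days against sham, and 0 to 3 members. It was 0 without sham mouse 2 or 3, library B or library C, 2 without library A and 3 without mouse 6; the cause was not tested. The small log2 folds of Tnnt1 and Tnnc1 at 14 days against 1 day ran from -0.00094 (without library A) to 0.28 and from -0.10 (without mouse 5) to 0.11, and Tnnc1 was -0.053 without library A. Family shares moved by more than 1 SD in 40 of 81 alternatives, all of them with another length. The rest of the 81 include total count only, which cannot change a share within a library. Trace counts of Tnni1, Tnni2 and Tnnc2 limit what can be said of them. No paired analysis was possible because the groups share no replicate numbers.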
